A study of Homo sapiens with 6 samples.

Results

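Replication-dependent histone genes were examined in total RNA of HEK293, a long-established line grown from human embryonic kidney. They were taken by symbol as the protein-coding genes of the HIST1H, HIST2H, HIST3H and HIST4H series in GENCODE 29. That gave 71 genes among 60675 gene rows, of which 57 had at least 30 counts over all libraries and were kept. The kept genes comprised 5 linker histone H1 genes, 14 H2A, 18 H2B, 11 H3 and 9 H4 genes. The 6 libraries were 3 from wild-type control cells and 3 from cells with RNA interference against MOCS2, called knockdown 1, 2 and 3 below. MOCS2 encodes both subunits of molybdopterin synthase, and the design asks how transcript levels respond to its targeting. All cells were grown in high-glucose medium with serum and Geneticin, an antibiotic used for selection. The labels do not describe the RNAi construct, and do not say whether the cells were 1 clone or the replicates separate cultures. The p-values therefore measure the spread between these libraries, which may be technical.

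Histones H2A, H2B, H3 and H4 form the octamer around which DNA is wound, and H1 binds the DNA between octamers. Their replication-dependent genes lie in clusters, mostly lack introns, and are expressed during S phase, when new DNA has to be packaged. Their mRNAs end in a conserved stem-loop instead of a poly(A) tail. SLBP binds that stem-loop, and the U7 small nuclear ribonucleoprotein and the CPSF3 endonuclease cut the transcript just after it. When DNA synthesis stops, these mRNAs are rapidly degraded. Libraries made from total RNA without poly(A) selection, as here, include such transcripts.

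The libraries held 17958632 to 22171106 reads assigned to genes. Reads assigned to no counted feature made up 21.5% to 25% of uniquely aligned reads in 5 libraries and 37.5% in knockdown 2. The counts do not show whether such reads lie inside or outside genes. MOCS2 itself was at 57.8, 66.6 and 65.6 CPM (read counts scaled to library size, with TMM factors) in controls and at 69.8, 58.9 and 59.9 CPM in knockdown 1, 2 and 3. The targeted RNA was thus not lower (log2 fold change -0.01, SE 0.14, adjusted p = 0.976 with edgeR, where SE is the standard error), and directions below are those of the libraries labelled knockdown. All 9 HEK293 markers had enough counts to be tested. In every library labelled knockdown, 2 of them lay below all controls and 1 above. Their sums were 1801, 1584 and 2020 CPM in controls and 2718, 2111 and 1986 CPM in knockdown 1, 2 and 3. The summed markers of other cell types were 40.0 to 68.7 CPM for fibroblasts, 3.01 to 5.53 for leukocytes, 1.58 to 4.38 for endothelium, 0.269 to 1.59 for keratinocytes and 0.135 to 0.425 for hepatocytes. The sums of these 5 lists overlapped between groups, and none of their genes was at 0 in all libraries. Single genes did not all overlap. The fibroblast genes LUM and PDGFRA and the endothelial gene KDR were below all controls in each library labelled knockdown, and the hepatocyte gene APOA1 and the keratinocyte gene KRT14, neither with enough counts to be tested, were above them. LUM was at 7.24, 16.7 and 11.7 CPM in controls and at 2.38, 1.12 and 2.22 CPM in knockdown 1, 2 and 3 (log2 fold change -2.64, adjusted p = 0.0558 with edgeR and 2.31e-09 with DESeq2). The part of such cells in the results below was not tested.

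The histone transcripts were lower in all 3 libraries labelled knockdown, far more so in knockdown 1 and 2 than in knockdown 3. Summed over the 57 genes they reached 8652, 8968 and 9740 CPM in controls. The sums were 2831, 3019 and 7332 CPM in knockdown 1, 2 and 3. Knockdown 1 and 2 thus held 31% and 33.1% of the control mean, while knockdown 3 held 80.4%, and the groups did not overlap. The mean total was 9120 ± 560 CPM over the controls and 4394 ± 2546 CPM over knockdown 1, 2 and 3 (SD, n = 3 each), a 2.07-fold difference. In these bulk samples, fewer cells in S phase and less histone RNA per cell cannot be told apart.

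Of the 57 genes, 56 lay below their lowest control in knockdown 1, 55 in knockdown 2 and 49 in knockdown 3. The share of all genes below their lowest control was not counted for single libraries. In 48 of the 57 all 3 libraries labelled knockdown were below all 3 controls. Among the 53 genes with enough counts to be tested, 46 separated in this way, against 14.3% of all 18267 genes tested. The median log2 fold change of the 53 was -1.09, where that of all genes tested was 0.0174. A negative fold change was found in 52, and the exception was HIST1H4I.

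At an adjusted p under 0.05, edgeR called 0 of the 53 histone genes lower, and 0% of all genes tested. The adjusted p of the histone genes ran from 0.0634 to 0.553. At an unadjusted p under 0.05, 47 of the 53 were lower, against a background of 10.6%. DESeq2 called 29 of the 51 to which it gave an adjusted p, against a background of 3.55%. Limma voom called 0. Without knockdown 3, edgeR called 47 of 53 lower at an adjusted p under 0.05, against a background of 8.3%. At an unadjusted p the count was then 50 of 53 against 16.4%. With any other library left out, edgeR called 0 of 53 at an adjusted p under 0.05. Over all fits with 1 library left out, the unadjusted count ran from 36 to 50.

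**Figure D1:**
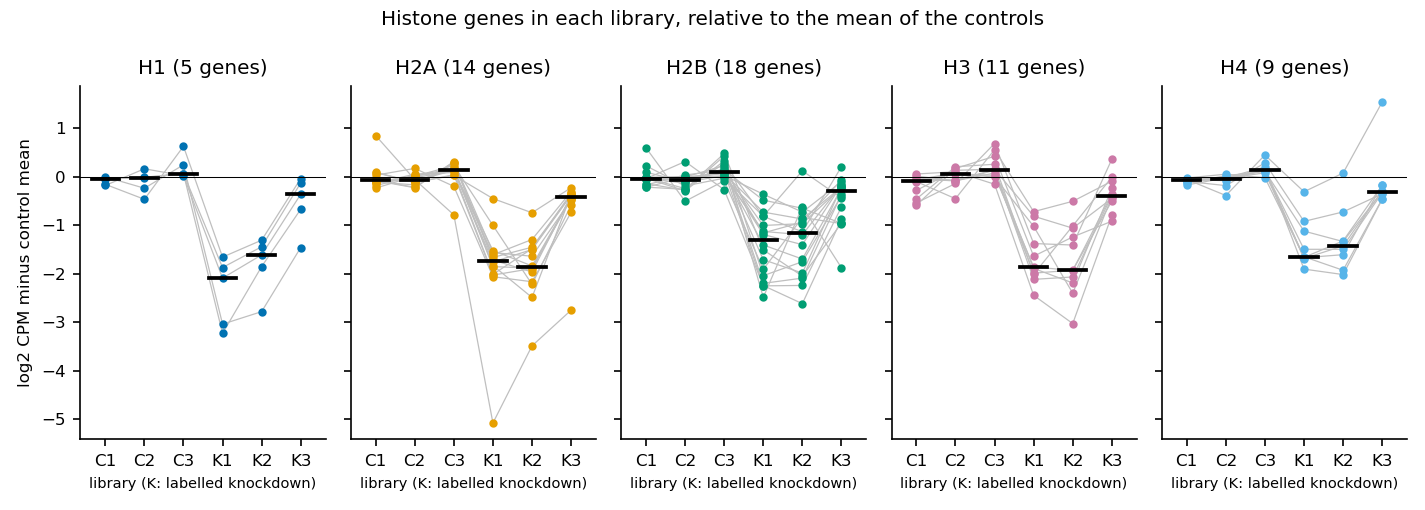
Each point is 1 kept histone gene in 1 library (C1 to C3 controls, K1 to K3 knockdown 1 to 3), as log2 CPM minus the mean log2 CPM of the controls, with lines joining the same gene and black bars at the class median. In all 5 classes the medians of K1 and K2 lie well below 0 and the median of K3 lies slightly below 0.

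Among the libraries labelled knockdown, 2 were low and 1 was intermediate. Relative to the control mean, the median log2 difference over the tested genes was -1.67 in knockdown 1, -1.61 in knockdown 2 and -0.368 in knockdown 3. The same medians in the controls were -0.057, -0.0422 and 0.116. Over all genes tested, the medians in knockdown 1, 2 and 3 were 0.004, 0.011 and -0.00345. Knockdown 1 and 2 were both below knockdown 3 in 53 of the 57 genes. The 4 others were HIST1H2BA, HIST1H2BE, HIST1H2BH and HIST1H2BM, all under 5 CPM. The share of all genes with this order was not counted. Knockdown 1 was below knockdown 2 in 29 of 57, so neither of these was the lower throughout.

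The stem-loop that marks these mRNAs was searched in GENCODE 29 transcripts (GRCh38) as a stem that starts with GG, with arms of 6 bases and a loop of 4 bases that reads TTTN. It was found inside the gene model of 24 of the 57 kept genes (42.1%), against 41 of the 19622 other protein-coding genes (0.209%). The models of 25 kept genes end with the coding part, so that the stem-loop lies outside them. The examples below show the stem shared by H2A, H2B and H3 genes, the stem of H4 genes, and the loop variants of HIST1H2BC and HIST1H4I. The stem-loop is in capitals, with 5 transcript bases on each side, 5′ to 3′.

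HIST1H2AE: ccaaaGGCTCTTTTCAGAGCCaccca

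HIST1H2BC: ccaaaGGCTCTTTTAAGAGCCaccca

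HIST1H3H: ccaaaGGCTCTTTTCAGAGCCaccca

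HIST1H4E: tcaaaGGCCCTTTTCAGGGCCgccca

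HIST1H4I: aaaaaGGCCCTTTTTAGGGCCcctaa

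HIST4H4: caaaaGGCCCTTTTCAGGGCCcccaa

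The capitals of HIST1H2AE lie at chr6:26217417-26217432 (plus strand), those of HIST1H2BC at chr6:26123472-26123487 (minus), HIST1H3H at chr6:27810516-27810531 (plus), HIST1H4E at chr6:26205001-26205016 (plus), HIST1H4I at chr6:27139654-27139669 (plus) and HIST4H4 at chr12:14770724-14770739 (minus). All are in the 3′ untranslated region, and those printed begin 34 to 52 bases after the coding end. The 22 tested genes with the stem-loop inside their model had a median log2 fold change of -0.911, and the 24 tested genes whose model stops at the coding end had -1.19. Counts of a gene whose model runs past the stem-loop can include reads from beyond it. The model of HIST2H2BF, for instance, extends 29196 genomic bases further, and that of HIST1H2BC 8599. The difference between these sets was not tested.

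Promoters were read from RefSeq (GRCh38.p14), from 250 bases before to 50 bases after each start site, and matched for 52 of the 57 genes by current or older symbol, with the start site inside the GENCODE gene or at most 250 bases from it. HIST1H2AH, HIST1H3I, HIST1H3J, HIST1H4A and HIST1H4C had no match. The motifs searched, as exact letters on both strands, were the TATA box TATAAA, the CCAAT box, the octamer ATTTGCAT that POU2F1 binds, and GGTCCG, the core letters of the site bound by HINFP, a factor of H4 promoters. TATAAA was present in 67.3% of histone promoters and in 12% of all 27305 RefSeq promoters. CCAAT was in 88.5% against 35.7%, in every matched H1, H2A, H2B and H3 promoter but in only 1 of 7 H4 promoters, that of HIST1H4I. ATTTGCAT was in 46.2% against 1.8%, in 10 of 13 H2A and 14 of 18 H2B promoters and in no matched H1, H3 or H4 promoter. GGTCCG was in 7 of 7 H4 promoters and in 3 of the 45 others, against 11.2% of all promoters. The windows of divergent H2A and H2B neighbours overlap, so their matches are in part the same letters counted for both genes. These matches describe letters and do not show that a site is used.

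One promoter of each class is given because the promoters differ by class while the transcripts of all 5 classes were lower. Each shows the 150 bases up to the RefSeq start site, with matches to the motifs on either strand in capitals; capital runs longer than a motif are overlapping matches.

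HIST1H1E: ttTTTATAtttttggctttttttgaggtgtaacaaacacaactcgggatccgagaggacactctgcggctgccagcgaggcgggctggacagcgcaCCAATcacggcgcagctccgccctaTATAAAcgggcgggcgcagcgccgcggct

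HIST1H2AG: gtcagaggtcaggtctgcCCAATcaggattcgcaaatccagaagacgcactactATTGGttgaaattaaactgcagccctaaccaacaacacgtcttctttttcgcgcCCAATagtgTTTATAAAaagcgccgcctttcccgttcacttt

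HIST1H2BJ: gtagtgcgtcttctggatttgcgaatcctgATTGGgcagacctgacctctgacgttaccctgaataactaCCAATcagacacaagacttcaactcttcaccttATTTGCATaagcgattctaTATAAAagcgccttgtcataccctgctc

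HIST1H3B: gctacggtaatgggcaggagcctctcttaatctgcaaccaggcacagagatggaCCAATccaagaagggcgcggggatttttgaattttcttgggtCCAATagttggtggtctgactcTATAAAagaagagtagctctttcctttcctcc

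HIST1H4E: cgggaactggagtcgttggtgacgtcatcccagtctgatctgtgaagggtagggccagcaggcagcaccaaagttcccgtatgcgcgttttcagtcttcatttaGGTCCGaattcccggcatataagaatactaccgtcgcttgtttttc

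These windows are chr6:26156179-26156328 (plus) for HIST1H1E, chr6:27132893-27133042 (plus) for HIST1H2AG, chr6:27132796-27132945 (minus) for HIST1H2BJ, chr6:26032100-26032249 (minus) for HIST1H3B and chr6:26204460-26204609 (plus) for HIST1H4E. HIST1H2AG and HIST1H2BJ are divergent neighbours, and the far ends of their windows are the same DNA read on opposite strands.

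Linker histone genes had a median log2 fold change of -1.17 over 5 tested genes, 4 of which were lower at an unadjusted p under 0.05. HIST1H1E and HIST1H1C, which encode the most abundant linker histone transcripts of these cells, and HIST1H1D made up 99.8% of the class. HIST1H1E (ENSG00000168298, chr6:26156354-26157107, plus strand, a single exon) was at 1011, 1029 and 1089 CPM in controls and at 284, 383 and 953 CPM in knockdown 1, 2 and 3. Knockdown 1 and 2 were far below the controls and knockdown 3 just below them, with no overlap. The log2 fold change was -0.95 (SE 0.36, adjusted p = 0.185 with edgeR and 0.290 with DESeq2). It was -1.65 without knockdown 3 and -0.645 without knockdown 1.

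HIST1H1C (ENSG00000187837, chr6:26055787-26056428, minus strand) was at 588, 746 and 676 CPM in controls and at 156, 218 and 518 CPM in knockdown 1, 2 and 3. HIST1H1D (ENSG00000124575, chr6:26234268-26234933, minus strand) was at 131, 135 and 142 CPM against 14.4, 37.5 and 85.2 CPM. Neither overlapped between groups, and HIST1H1D differed more between knockdown 1 and 2 than the other abundant linker genes did. Their log2 fold changes were -1.17 (SE 0.36, edgeR adjusted p = 0.128) and -1.57 (0.46, adjusted p = 0.118). With DESeq2 the adjusted p-values were 0.189 and 0.129.

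HIST1H1A, a scarce linker histone gene, was at 3.51, 2.96 and 4.18 CPM in controls and at 0.339, 0.425 and 1.21 CPM in knockdown 1, 2 and 3. Every value of the libraries labelled knockdown was under every control value. Its log2 fold change of -2.41 (SE 0.44, adjusted p = 0.0674 with edgeR and 7.87e-05 with DESeq2) was the second most negative of the 53. HIST1H1T, known as the testis linker histone, had groups that overlapped at a control mean of 1.55 CPM. HIST1H1B, the remaining gene of the class, had only 2 counts in all and was not kept.

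All 14 H2A genes were lower at an unadjusted p under 0.05 and without overlap between groups. Their log2 fold changes ran from -3.93 to -0.46. The median was -1.15, and it ran from -1.71 (without knockdown 3) to -0.929 when 1 library was left out. HIST1H2AG (ENSG00000196787, chr6:27133042-27135291, plus strand) was at 338, 394 and 430 CPM in controls and at 107, 104 and 286 CPM in knockdown 1, 2 and 3. HIST1H2AH (ENSG00000274997, chr6:27147129-27147515, plus strand) was at 281, 312 and 339 CPM against 108, 86.4 and 230 CPM. HIST1H2AE (ENSG00000277075, chr6:26216975-26217483, plus strand) was at 323, 279 and 313 CPM against 74.4, 81.7 and 222 CPM. In all 3 genes knockdown 3 was the highest of its group and still below every control. The log2 fold changes were -1.23, -1.14 and -1.27, with edgeR adjusted p-values of 0.111, 0.107 and 0.110. With DESeq2 the adjusted p-values were 0.00712, 0.00712 and 0.1475.

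The most negative fold change of all histone genes was that of a scarce H2A gene, HIST1H2AJ (ENSG00000276368, chr6:27814354-27814740, minus strand). It was at 9.44, 4.99 and 2.97 CPM in controls and at 0.0565, 0.372 and 0.686 CPM in knockdown 1, 2 and 3. The controls differed among themselves more than in the abundant genes, but the groups did not overlap. In raw counts the values were 210, 111 and 59 against 1, 7 and 13. The log2 fold change was -3.93 (SE 0.62, adjusted p = 0.0634 with edgeR and 5.14e-09 with DESeq2).

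HIST3H2A (ENSG00000181218, chr1:228456979-228457873, minus strand), the H2A gene of the HIST3 cluster, differed least in its class. It was at 95.7, 82.8 and 91.5 CPM in controls and at 65.7, 53.6 and 76.7 CPM in knockdown 1, 2 and 3. All 3 values were below the controls, with knockdown 3 only slightly so. The log2 fold change was -0.46 (SE 0.16, adjusted p = 0.157 with edgeR and 0.125 with DESeq2). HIST2H2AA3 and HIST2H2AA4, which are duplicate copies of one H2A gene, had 1 and 4 counts in all and were not kept; reads shared by such copies do not align uniquely, so their levels are uncertain.

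H2B genes had the least negative median, -0.817 over 17 tested genes, of which 14 were lower at an unadjusted p under 0.05. When 1 library was left out, the median ran from -1.3 (without knockdown 3) to -0.716. HIST1H2BJ (ENSG00000124635, chr6:27125897-27132750, minus strand) was at 401, 401 and 437 CPM in controls and at 155, 127 and 349 CPM in knockdown 1, 2 and 3. HIST1H2BC (ENSG00000180596, chr6:26114873-26123926, minus strand) was at 281, 325 and 383 CPM against 71.1, 76.6 and 254 CPM. Both separated the groups, with log2 fold changes of -0.97 (SE 0.32, edgeR adjusted p = 0.139) and -1.30 (0.42, adjusted p = 0.136). With DESeq2 the adjusted p-values were 0.0283 and 0.230.

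HIST2H2BF (ENSG00000203814, chr1:149782689-149812373, minus strand) was at 324, 303 and 374 CPM in controls and at 149, 174 and 318 CPM in knockdown 1, 2 and 3. Knockdown 3 lay within the control range here, so the groups overlapped. The log2 fold change was -0.65 (SE 0.26, adjusted p = 0.196 with edgeR and 0.114 with DESeq2). HIST3H2BB (ENSG00000196890, chr1:228458107-228460470, plus strand), the divergent neighbour of HIST3H2A, was at 72.7, 62.8 and 69.2 CPM against 53.0, 41.0 and 63.4 CPM. Knockdown 3 again exceeded the lowest control. The log2 fold change was -0.38 (SE 0.18, adjusted p = 0.252 with edgeR and 0.268 with DESeq2).

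HIST1H2BE had the least negative H2B fold change. It was at 4.40, 3.28 and 3.68 CPM in controls and at 2.09, 4.09 and 2.74 CPM in knockdown 1, 2 and 3. Its groups overlapped because knockdown 2 lay among the controls. The log2 fold change was -0.35 (SE 0.31, adjusted p = 0.553 with edgeR and 0.601 with DESeq2). The model of HIST1H2BE has up to 4 exons and is overlapped by AL353759.1 on the opposite strand, so its counts are uncertain, since the sources used here do not say whether counting used strand. Altogether 10 of the 57 kept genes are overlapped by another gene model.

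H3 genes had a median of -1.18 over 8 tested genes. It ran from -1.96 (without knockdown 3) to -0.896 when 1 library was left out. HIST1H3B (ENSG00000274267, chr6:26031650-26032060, minus strand) was at 394, 434 and 425 CPM in controls and at 115, 109 and 326 CPM in knockdown 1, 2 and 3. HIST1H3H (ENSG00000278828, chr6:27810064-27811300, plus strand) was at 256, 256 and 298 CPM against 61.9, 64.1 and 205 CPM. HIST1H3I (ENSG00000275379, chr6:27871905-27872315, minus strand) was at 147, 142 and 166 CPM against 40.7, 33.1 and 128 CPM. The 3 genes showed the same order, with knockdown 1 and 2 close together at the bottom and knockdown 3 between them and the controls. The log2 fold changes were -1.19, -1.29 and -1.17, with standard errors of 0.36, 0.39 and 0.41. The adjusted p-values were 0.123, 0.125 and 0.157 with edgeR and 0.192, 0.1625 and 0.2535 with DESeq2.

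HIST1H3A (ENSG00000275714, chr6:26020490-26020900, plus strand) was the H3 gene with the most negative fold change. It was at 103, 106 and 88.7 CPM in controls and at 18.0, 12.0 and 56.7 CPM in knockdown 1, 2 and 3, with no overlap. The log2 fold change was -1.78 (SE 0.45, adjusted p = 0.100 with edgeR and 0.0776 with DESeq2). HIST3H3, known for its expression in testis, was too scarce to test, at 0.180, 0.269 and 0.554 CPM against 0.0565, 0.0532 and 0.422 CPM, and its groups overlapped.

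The 9 kept H4 genes all encode one protein, and 8 of the 9 were lower at an unadjusted p under 0.05 and without overlap. Their median log2 fold change was -0.974, and it ran from -1.51 (without knockdown 3) to -0.742 when 1 library was left out. HIST1H4C (ENSG00000197061, chr6:26103876-26104310, plus strand) was at 408, 408 and 444 CPM in controls and at 132, 168 and 371 CPM in knockdown 1, 2 and 3. HIST1H4E (ENSG00000276966, chr6:26204552-26206038, plus strand) was at 277, 292 and 326 CPM against 105, 105 and 236 CPM. HIST1H4D (ENSG00000277157, chr6:26188765-26189076, minus strand) was at 242, 239 and 280 CPM against 79.4, 82.9 and 225 CPM. In each of these the 3 libraries labelled knockdown were below all controls. The log2 fold changes were -0.91, -1.002 and -0.97 (edgeR adjusted p = 0.155, 0.113 and 0.159), and DESeq2 gave adjusted p-values of 0.0438, 0.0137 and 0.0429.

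HIST1H4I (ENSG00000276180, chr6:27138588-27139881, plus strand) was the only tested histone gene with a positive fold change. It was at 4.94, 3.91 and 7.05 CPM in controls and at 4.13, 5.42 and 15.1 CPM in knockdown 1, 2 and 3. Knockdown 1 and 2 lay within the control range and knockdown 3 above it. The log2 fold change was 0.64 (SE 0.44, adjusted p = 0.437 with edgeR and 0.3665 with DESeq2). It was -0.152 without knockdown 3 and 0.957 without knockdown 1. HIST4H4 (ENSG00000197837, chr12:14767999-14771131, minus strand), the single gene on chromosome 12, was at 51.0, 48.0 and 66.4 CPM against 28.7, 32.9 and 42.6 CPM. Its groups did not overlap (log2 fold change -0.66, SE 0.19, adjusted p = 0.116 with edgeR and 0.0392 with DESeq2).

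**Figure D2:**
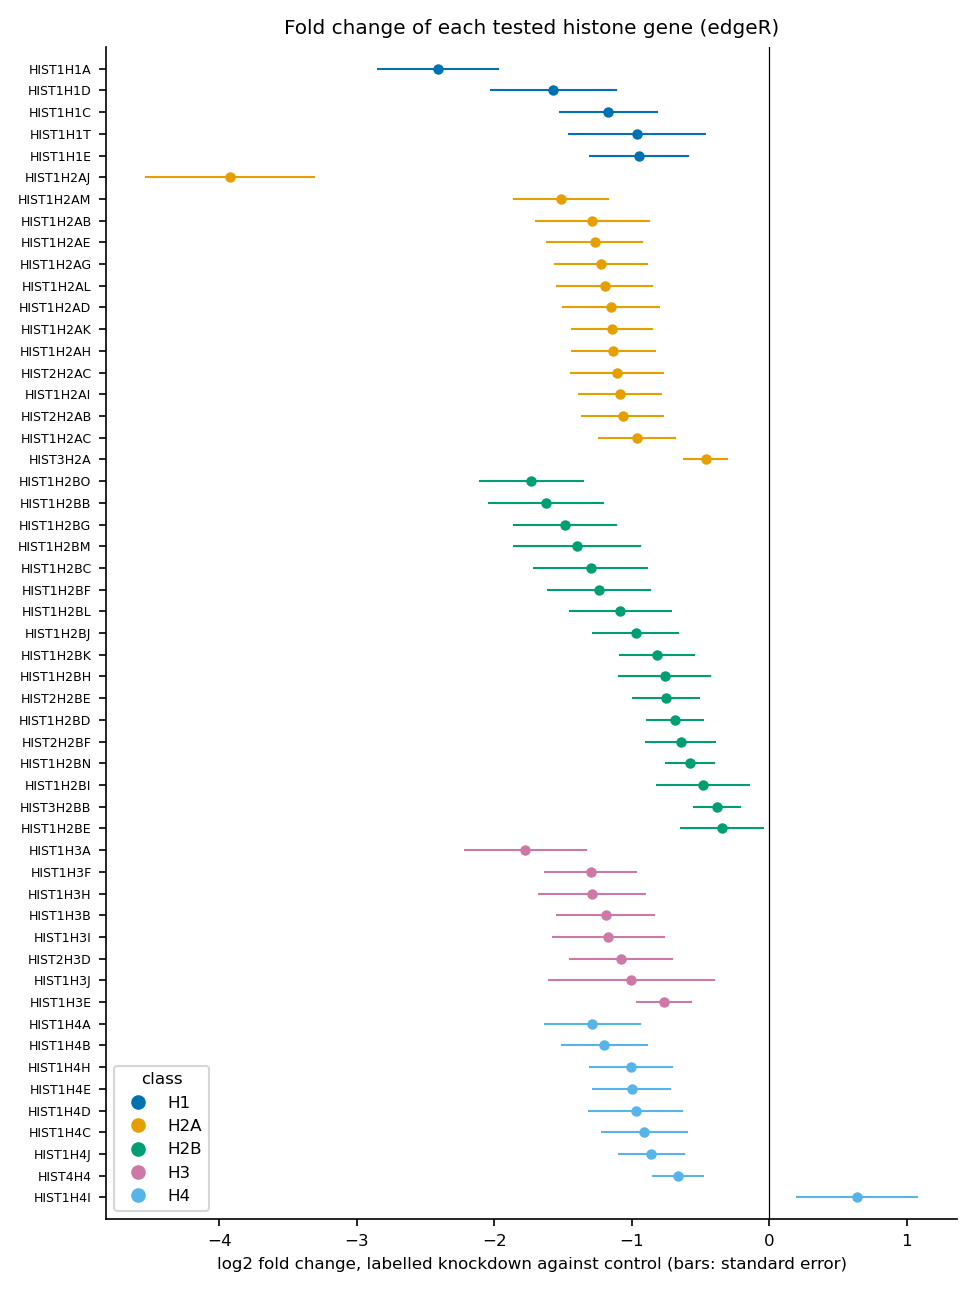
Points are edgeR log2 fold changes, labelled knockdown relative to control, for each of the 53 tested histone genes, coloured by class, with bars of 1 standard error. HIST1H2AJ stands far to the left at -3.93, HIST1H4I alone lies to the right of 0 at 0.64, and 41 of the 53 lie between -1.5 and -0.5.

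Class sums repeated the order of the libraries. H1 genes summed to 1735, 1914 and 1914 CPM in controls and to 456, 639 and 1559 CPM in knockdown 1, 2 and 3. H2A genes summed to 2159, 2201 and 2487 CPM against 701, 717 and 1729 CPM. H2B genes summed to 2265, 2290 and 2562 CPM against 882, 850 and 1953 CPM. In all 3 classes the groups were separate and knockdown 3 was nearest to the controls. H3 genes summed to 1084, 1123 and 1178 CPM against 297, 273 and 851 CPM. H4 genes summed to 1409, 1440 and 1600 CPM against 495, 541 and 1239 CPM. The ratio of group means was lowest for H3 at 0.42 and highest for H2B at 0.518, with H2A at 0.46, H1 at 0.477 and H4 at 0.511; differences between classes were not tested.

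The make-up of the total by class shifted by a few percentage points. H3 genes contributed 12.5%, 12.5% and 12.1% in controls and 10.5%, 9.04% and 11.6% in knockdown 1, 2 and 3. H2B genes contributed 26.2%, 25.5% and 26.3% against 31.1%, 28.2% and 26.6%. The H3 share was thus lower and the H2B share higher in each library labelled knockdown than in each control, by a narrow margin in knockdown 3. The H4 share, at 16.3%, 16.1% and 16.4% against 17.5%, 17.9% and 16.9%, was also higher in each. The H2A share was 25%, 24.5% and 25.5% against 24.8%, 23.7% and 23.6%, with overlapping groups. The H1 share was 20.1%, 21.3% and 19.7% against 16.1%, 21.2% and 21.3%, where only knockdown 1 stood apart.

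**Figure D3:**
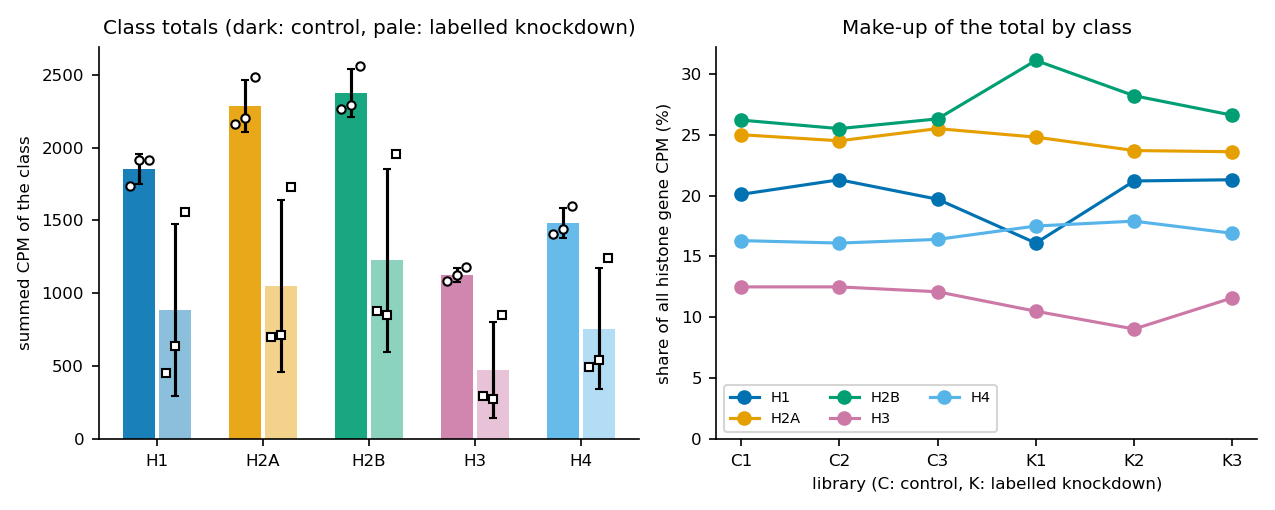
Left, bars are means of the summed CPM of each class over 3 libraries, error bars are SD, and points are single libraries. Right, each line is the percentage of all histone gene CPM that a class holds in each library. In the left panel all controls lie above all libraries labelled knockdown in each class, and in the right panel the H2B line rises to 31.1% in K1.

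Many of these genes encode the same protein, and a sum over kept genes does not depend on which copy a counted read was assigned to. Reads that did not align uniquely are missing from these sums. The 57 genes encode 32 different proteins, and 31 genes share theirs with another gene. The 9 kept genes for the HIST1 cluster's H3 protein together gave 1064, 1102 and 1157 CPM in controls and 287, 269 and 836 CPM in knockdown 1, 2 and 3. The 5 genes for the H2A protein of HIST1H2AG gave 831, 859 and 1012 CPM against 259, 263 and 671 CPM. The 5 genes for the H2B protein of HIST1H2BC gave 637, 670 and 792 CPM against 154, 164 and 502 CPM. None of the 3 sums overlapped between groups. The log2 fold changes were -1.26, -1.18 and -1.36 (standard errors 0.37, 0.33 and 0.39), with edgeR adjusted p-values of 0.120, 0.110 and 0.115.

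Levels were also compared between genes per kilobase of exon. The CPM used elsewhere, for the choice of named genes and for sums and shares, are not corrected for length. In controls, the highest levels were 1383 CPM per kilobase for HIST1H1E, 1044 for HIST1H1C, 1016 for HIST1H3B, 966 for HIST1H4C and 813 for HIST1H4D. The scarcest genes stood below 1 CPM per kilobase, among them HIST1H3G at 0.151 and HIST1H2BH at 0.598. Abundant and scarce genes had like medians: the 24 genes with a mean of at least 100 CPM had a median log2 fold change of -1.10, and the 29 tested genes below that had -1.08.

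By location, the genes of the chromosome 6 cluster, HIST1, differed more than those of the small clusters. The 45 tested HIST1 genes had a median log2 fold change of -1.15. The 48 kept HIST1 genes summed to 7691, 8021 and 8667 CPM in controls and to 2390, 2552 and 6469 CPM in knockdown 1, 2 and 3. The 5 HIST2 genes on chromosome 1 had a median of -1.07, and summed to 741, 753 and 845 CPM against 293, 340 and 680 CPM. The 3 HIST3 genes on another stretch of chromosome 1 summed to 169, 146 and 161 CPM against 119, 94.6 and 140 CPM. None of these sums overlapped between groups, and the ratio of group means was 0.744 for HIST3 and 0.468 for HIST1. Whether the clusters differ was not tested, and HIST3 and HIST4 together hold only 3 tested genes.

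Gene structure gave a similar contrast. The 42 tested genes with a single exon in every transcript model had a median log2 fold change of -1.16, and the 11 with 2 or more exons had -0.77. The summed level of the 11 was 1822, 1869 and 2135 CPM in controls and 730, 770 and 1631 CPM in knockdown 1, 2 and 3, again without overlap. Spliced models include HIST1H2BD, HIST1H2BE, HIST1H2BN and HIST4H4, some of which can also give polyadenylated transcripts; stem-loop and polyadenylated forms cannot be separated in counts per gene.

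Divergent neighbours within 500 bases form 12 pairs, 11 of them with both genes tested and 10 of those an H2A gene with an H2B gene. The partners' fold changes differed by 0.003 to 2.53 on the log2 scale, with a median of 0.254. HIST1H2BL and HIST1H2AI were the closest pair, at -1.08 and -1.09. HIST1H2AJ and HIST1H2BM were the most different, at -3.93 and -1.40, and HIST1H2BM had a control mean of only 1.19 CPM. HIST3H2A and HIST3H2BB were alike in differing least, at -0.46 and -0.38.

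**Figure D4:**
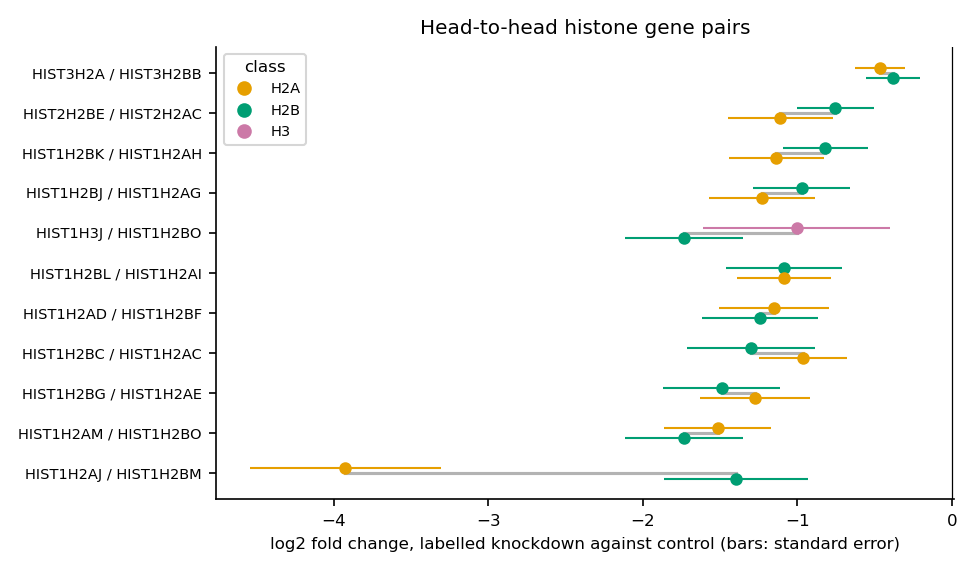
Each row is a pair of divergent histone genes with start sites within 500 bases, the points are their edgeR log2 fold changes coloured by class, and bars are 1 standard error. In 10 of the 11 pairs the partners' error bars overlap, and the HIST1H2AJ and HIST1H2BM pair is spread the most.

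Other genes of the pathway were taken from lists. As edgeR called 0 of all 18267 genes tested at an adjusted p under 0.05, none could pass in any list. DESeq2 called 1 gene of G2 and mitosis and 2 RNAs without poly(A) tails lower, and 0 genes in the other lists below. Its background was 3.55% lower. At an unadjusted p under 0.05, edgeR had 1933 of the 18267 lower (10.6%) and 1813 higher, the background of the list counts below. Of 23 genes for 3′ processing, export and decay, 0 were lower and 3 higher at an unadjusted p under 0.05, and the median log2 fold change was 0.129. SLBP, the stem-loop binding protein, was at 94.9, 94.7 and 93.1 CPM in controls and at 129, 94.9 and 90.0 CPM in knockdown 1, 2 and 3. Only knockdown 1 stood out, and it was higher (log2 fold change 0.15, SE 0.16, edgeR adjusted p = 0.629). ERI1, an exonuclease that trims the stem-loop end and acts in histone mRNA decay, was at 46.3, 49.0 and 41.5 CPM against 89.9, 51.1 and 61.1 CPM. Its 3 libraries labelled knockdown were all above the controls, and its log2 fold change of 0.56 (SE 0.20, edgeR adjusted p = 0.163) was the largest of the list. The most abundant members were SNRPD3 (-0.11), SNRPB (0.29), both core proteins of small nuclear ribonucleoproteins, and CASP8AP2 (0.13), which takes part in histone gene expression.

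Among 25 genes for histone gene transcription and histone chaperones, 2 were lower and 0 higher at an unadjusted p under 0.05, with a median log2 fold change of -0.0111. NPAT, the coactivator of histone genes that cyclin E and CDK2 phosphorylate, was at 70.0, 72.9 and 68.2 CPM in controls and at 80.8, 64.8 and 63.8 CPM in knockdown 1, 2 and 3. Those groups overlapped. RBBP7, a histone-binding protein, was lower in every library labelled knockdown (653, 755 and 650 CPM against 554, 503 and 534 CPM), with a log2 fold change of -0.37 and an edgeR adjusted p of 0.203. NASP and RBBP4, the next most abundant, had log2 fold changes of 0.08 and 0.19, and CCNE2, a cyclin E gene, had the largest at 0.39.

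Replacement histones, which are made outside S phase from polyadenylated mRNA, had values on both sides of the controls. Of 11 tested genes, 1 was lower and 0 higher at an unadjusted p under 0.05, and the median log2 fold change was -0.144. H3F3B, which encodes the H3 variant deposited independently of replication, was at 640, 619 and 576 CPM in controls and at 779, 689 and 682 CPM in knockdown 1, 2 and 3. Its libraries labelled knockdown were all above the controls (log2 fold change 0.23, SE 0.15, edgeR adjusted p = 0.412). H2AFY and H3F3A had log2 fold changes of 0.23 and 0.11. CENPA, the centromeric H3 variant, was at 23.6, 25.1 and 20.4 CPM against 6.67, 5.85 and 24.3 CPM, low in knockdown 1 and 2 and not in knockdown 3 (log2 fold change -0.91, edgeR adjusted p = 0.276).

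DNA replication genes, which act in the same phase of the cell cycle, showed no common direction. Of 42 tested, 3 were lower and 3 higher at an unadjusted p under 0.05, and the median log2 fold change was 0.136. MCM7, a subunit of the replicative helicase, was at 607, 549 and 593 CPM in controls and at 916, 602 and 621 CPM in knockdown 1, 2 and 3. RRM2, a ribonucleotide reductase subunit and the gene with the largest fold change of the list at 0.60, was at 281, 297 and 302 CPM against 681, 295 and 360 CPM. In both genes knockdown 1 was far above the others. The medians relative to the control mean were 0.346 in knockdown 1, -0.0759 in knockdown 2 and -0.00138 in knockdown 3. MCM3, another abundant helicase subunit, had a log2 fold change of 0.30.

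Genes of G2 and mitosis were also low in knockdown 1 and 2, but their median was not low in knockdown 3. In 8 of the 25, all libraries labelled knockdown were below all controls, against 14.3% of all genes tested. All 25 had a negative log2 fold change, and the median was -0.753. At an unadjusted p under 0.05, 12 were lower and 0 higher, against 1933 and 1813 of all 18267 genes tested. Their median relative to the control mean was -1.19 in knockdown 1, -1.60 in knockdown 2 and -0.0162 in knockdown 3. TOP2A, the topoisomerase that untangles sister chromatids, was at 1204, 1431 and 1108 CPM in controls and at 415, 376 and 1145 CPM in knockdown 1, 2 and 3. HMMR, a spindle protein, was at 118, 119 and 111 CPM against 12.0, 16.3 and 110 CPM. Knockdown 3 stood at or just below the lowest control for HMMR and among the controls for TOP2A, whereas the histone total in knockdown 3 was at 80.4% of the control mean. The other named members were CENPF (-0.75) and MKI67 (-0.69), and the part of cell cycle position in the histone values was not tested.

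The RNAs without poly(A) tails that do not depend on replication had no common direction. Of 19 tested, 2 were lower and 2 higher at an unadjusted p under 0.05, close to the shares over all genes tested. The median log2 fold change was 0.123. SCARNA7, a small Cajal body RNA, was at 273, 206 and 315 CPM in controls and at 330, 571 and 248 CPM in knockdown 1, 2 and 3. RN7SL3, of the signal recognition particle RNA family, was at 209, 222 and 423 CPM against 97.7, 93.7 and 133 CPM (log2 fold change -1.40, SE 0.27, edgeR adjusted p = 0.0746). RN7SL3, RNU4-1 and RNVU1-7 were the 3 of these RNAs below all controls in each library labelled knockdown. A count of 3 among the 19 tested is close to the 14.3% of all genes tested that separated in this way. RN7SL3 has many near-identical copies, so its counts are uncertain. RNU4-2, a spliceosomal RNA, had a log2 fold change of 0.04.

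**Figure D5:**
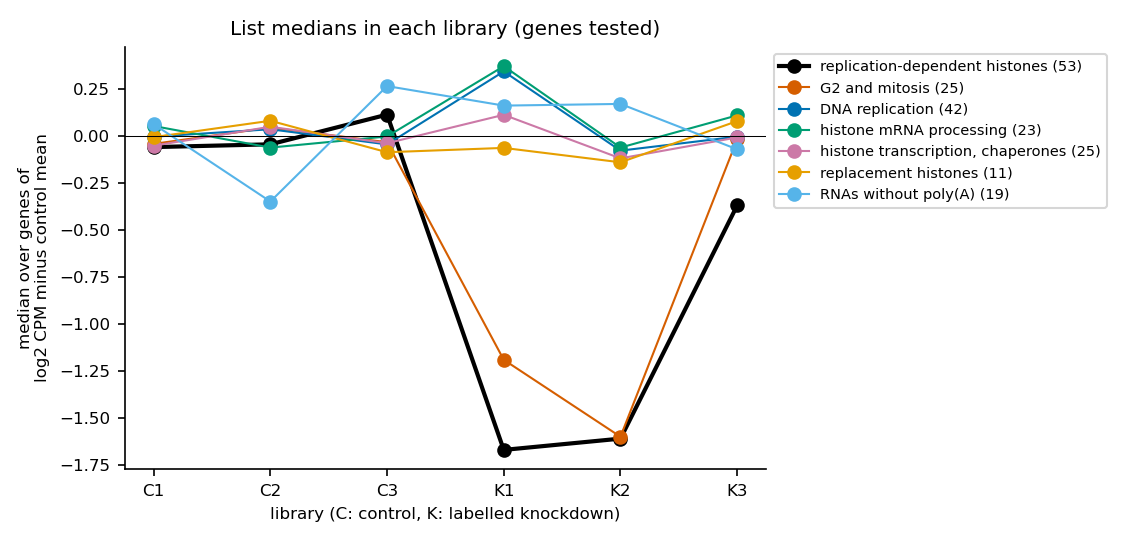
Lines are the median, over the tested genes of each list (number in brackets), of log2 CPM minus the control mean in each library. Histone genes and genes of G2 and mitosis drop below -1 in K1 and K2, and of these only the histone line stays below the controls in K3, at -0.368.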

How the data were processed

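Total RNA of 3 control and 3 MOCS2 RNAi libraries was sequenced after ribosomal RNA removal with a stranded kit, per the labels' protocols. The authors deposited raw read counts per Ensembl gene, not normalized. HTSeq, TopHat2 2.0.13, bcl2fastq 2.18 and the hg38 build are named, per the submitters' processing notes. The annotation, strand setting and read filters of the counting are not stated there or in the labels. Gene counts per library ran from 17958632 to 22171106, which limits precision for scarce genes. The 5 rows that name no gene were left out (no-feature reads 21.5% to 37.5% of uniquely aligned reads). GENCODE 29 gave symbols for 57055 of 60675 gene rows. Of 188 gene list entries 187 were matched, 2 of them by an older symbol.

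Genes were tested on the whole table with edgeR 4.0.16 (R 4.3.3): TMM factors, filterByExpr (18267 genes left), quasi-likelihood F test, two-sided, Benjamini-Hochberg adjustment, threshold 0.05. CPM are TMM scaled, with a prior count of 2 for log2 CPM. DESeq2 1.42.0 and limma voom 3.58.1 were alternatives, beside other factors and filters, offsets for GC content and length, and leaving out each library. The scripts were tested on simulated data. Named genes were, in each class, the 3 with the highest mean CPM, the 3 most and 3 least negative fold changes, any positive one, the HIST3 and HIST4 genes, and in each related list the 3 most abundant and the largest fold change; SLBP, NPAT and others outside this rule were chosen after their values were seen. A list member that the rule names is not reported here. The histone genes, the lists and the rule were chosen with earlier results of these data known.

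No 2 libraries of a group agreed within sampling noise (chi-square over its degrees of freedom 11.6 to 75.2), and each counts as 1 sample. The median SD of log2 CPM was 0.161 in controls and 0.311 in the libraries labelled knockdown. Replicate numbers in the titles did not pair the libraries.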

Additional observations from a re-analysis of the deposited data

How the results depend on the processing

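The number of histone genes lower at an adjusted p under 0.05 was 0 with edgeR on all 6 libraries, and also 0 with DESeq2 size factors, upper-quartile factors, limma voom, a minimum of 1 CPM in 3 libraries, and GC and length offsets. It was 29 with DESeq2 and 44 of 57 with no filter on low counts, where 2.03% of all genes were called. Leaving out 1 library gave 0 to 47, the 47 only without knockdown 3. The median log2 fold change of the tested histone genes ran from -1.65 to -0.864 when 1 library was left out. By class it ran from -1.85 to -0.866 for H1, -1.71 to -0.929 for H2A, -1.3 to -0.716 for H2B, -1.96 to -0.896 for H3 and -1.51 to -0.742 for H4, each lowest without knockdown 3. With all libraries kept, the median over all histone genes stayed between -1.28 and -1.05. The count at an unadjusted p under 0.05 was 36 to 50 over the alternatives. Of 793 values of single genes under alternatives, 1 changed sign, HIST1H4I, which ran from -0.152 (without knockdown 3) to 0.957 when 1 library was left out. Among the related lists, the replacement histone median moved to -0.0358 with GC and length offsets, that of DNA replication to -0.0307 without knockdown 1, and that of mitosis to -1.34 without knockdown 3. The cause of these changes was not tested. Depth limits the genes under about 1 CPM, 4 of which could not be tested.

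The replicate number was also fitted as a block. Deviations of same-numbered libraries correlated at 0.114, -0.167 and -0.125, so the numbers were not taken as a pairing. With the replicate block, 0 of 53 histone genes passed (smallest adjusted p 0.0521), and 13 genes of the whole table were called lower and 6 higher. With GC and length offsets and the replicate block together, 6 histone genes passed, where 0.336% of all genes were called lower; the replacement histone median was then -0.0407.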

Other observations

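Histone pseudogenes lie in or near the same clusters and were not among the genes described above. Of 19 matched by symbol, 5 had at least 30 counts in all. HIST2H2BC was at 10.7, 9.48 and 12.2 CPM in controls and at 7.35, 18.4 and 7.76 CPM in knockdown 1, 2 and 3, so that knockdown 2, low for nearly all histone genes, was the highest of the 6 libraries (log2 fold change 0.05, standard error (SE) 0.33, edgeR adjusted p = 0.947). HIST2H2BA and HIST1H3PS1 had log2 fold changes of 0.36 and 0.17, also with overlapping groups. HIST3H2BA was at 1.08, 1.08 and 0.655 CPM against 0.339, 0.159 and 0.580 CPM (log2 fold change -1.37, SE 0.48, edgeR adjusted p = 0.155), below the controls in every library labelled knockdown. Reads shared with near-identical genes make these counts uncertain.

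Of the 14 histone genes with too few counts to be kept, HIST1H3D, HIST2H3C and HIST2H3PS2 had 0 counts in all 6 libraries, HIST1H1B had 2 and HIST1H4K 17. The 14 held 85 counts together, against 831522 for the 57 that were kept. HIST1H3D and HIST2H3PS2 are overlapped on their own strand by another gene model, and HIST2H3C encodes the same protein as HIST2H3A and HIST2H3D. Reads that fit several gene models or align to several copies can be missing from these counts. Low counts here therefore do not show that a gene is silent.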
